A study of Mus musculus with 10 samples.

Results

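The proteasome is the protease that degrades proteins tagged with ubiquitin, and its messenger RNAs were followed here in the testes of young mice. Its genes were taken by name, as every mouse gene symbol made of Psm, a letter from a to g, a number and at most 1 further letter. The reference gene table holds 49 such symbols, and 48 of them have at least 1 probe on the array, with 73 probes in all, out of 23462 gene symbols named on the array. The probe with the highest mean signal over the 10 arrays stood for its gene. Of the 48 genes, 47 were well above background on at least 5 arrays and were tested. Psmb11, the catalytic subunit of the thymus proteasome, was well above background on 1 R array and 0 C arrays and was not tested. No probe took the name Psme2, while the probes of Psme2b, a retrocopy of it in the mouse, may take up its RNA, so that values of Psme2b are uncertain.

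The proteasome is a barrel with caps. The barrel, or core particle, is made of outer alpha rings, which gate the entrance, and inner beta rings, which hold the active sites. The cap, or regulatory particle, recognises ubiquitin, unfolds the substrate with a ring of ATPases and threads it into the core. Other activators can dock in place of that cap, and immune cells swap the catalytic beta subunits for inducible ones that favour peptides for antigen presentation. In the mouse testis, germ cells make a version of the core in which Psma8 takes the place of Psma7, and the activator encoded by Psme4 takes part in removing acetylated histones when sperm chromatin is packed.

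The series asks how undernutrition in the womb bears on fetal testosterone and later sperm number. The samples were single testes of 10 male C57BL/6N mice aged 6 weeks, each hybridised to its own 1-colour Agilent array. The 5 R animals were sons of dams held to 50% of the mean food intake of control dams, starting 6.5 days post coitum, and foster dams of the control diet nursed them. The 5 C animals came from dams with free access to food and were nursed by those dams, so that prenatal diet and fostering cannot be told apart. Both groups ate freely after weaning. No source used here gives the litters, and p-values treat the animals as independent. The tissue is whole testis, in which fewer cells of a type and less RNA per cell cannot be told apart. Values are log2 signals, meaning log2 processed intensity with the 75th percentile of its array subtracted, and a change is R minus C. A gene was called where limma's adjusted p over all tested probes was under 0.05, and each adjusted p below is of that kind.

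Some arrays stand apart. On C replicate 2, 41 of the 47 genes had their highest signal of all 10 arrays. In the authors' deposited table, R replicate 1 is averaged with the control arrays and C replicate 5 with the test arrays, which goes against the labels used here. Slide 1 held 4 R and 2 C arrays, and slide 2 held 1 R and 3 C arrays. The 75th percentile of the intensity lay between 610 and 740 on R arrays and between 566 and 721 on C arrays, and 0 probes were saturated. The median intensity was 49.5 on C replicate 2, beside 68.1 to 88.0 on the other arrays, and the 75th percentile was 11.4 times the median there, beside 8.31 to 9.35 times elsewhere. Germ cell genes marked the tissue, with 10 of 10 elongating and 10 of 10 round spermatid markers well above background on at least 5 arrays, while the 4 epididymal markers did not reach that.

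Of the proteasome genes called, most belonged to the core, while most cap genes were not called. Of the 47 genes, 19 were called lower in R and 0 higher, and 27 had an unadjusted p under 0.05, beside 48.2% of all genes. Over all 16735 genes tested, 36.0% were called, 22.9% lower and 13.1% higher. The median change of the 47 genes was −0.28, beside −0.05 over all genes tested, and 41 of the 47 changes were below 0, as were 56.2% over all genes. The 5 R and 5 C values did not overlap in 20 of the 47 genes (all lower in R but Psmd2), beside 29.3% of all genes and 18.3% lower. The study's fold limits, above 1.5 or under 0.66, were added here to the limma call. Both were met by 6 genes, all lower in R (Psma7, Psma2, Psmb1, Psmb2, Psme2b and Psmb9). Over all genes tested, 6.55% met both lower in R and 3.89% higher.

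By role, 10 of the 14 core genes were called lower with a median change of −0.40, and 3 of the 17 cap genes with a median of −0.08. Every core gene had a change below 0, between −0.75 for Psma7 and −0.11 for Psmb6. The cap genes spread around 0, from −0.44 for Psmc6 to 0.13 for Psmc5. Among the remaining roles, 1 of 3 immunoproteasome genes, 2 of 3 ring-shaped activators, 3 of 8 chaperone and inhibitor genes and 0 of 2 testis genes were called lower. Over all genes tested, 22.9% were called lower.

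**Figure D1:**
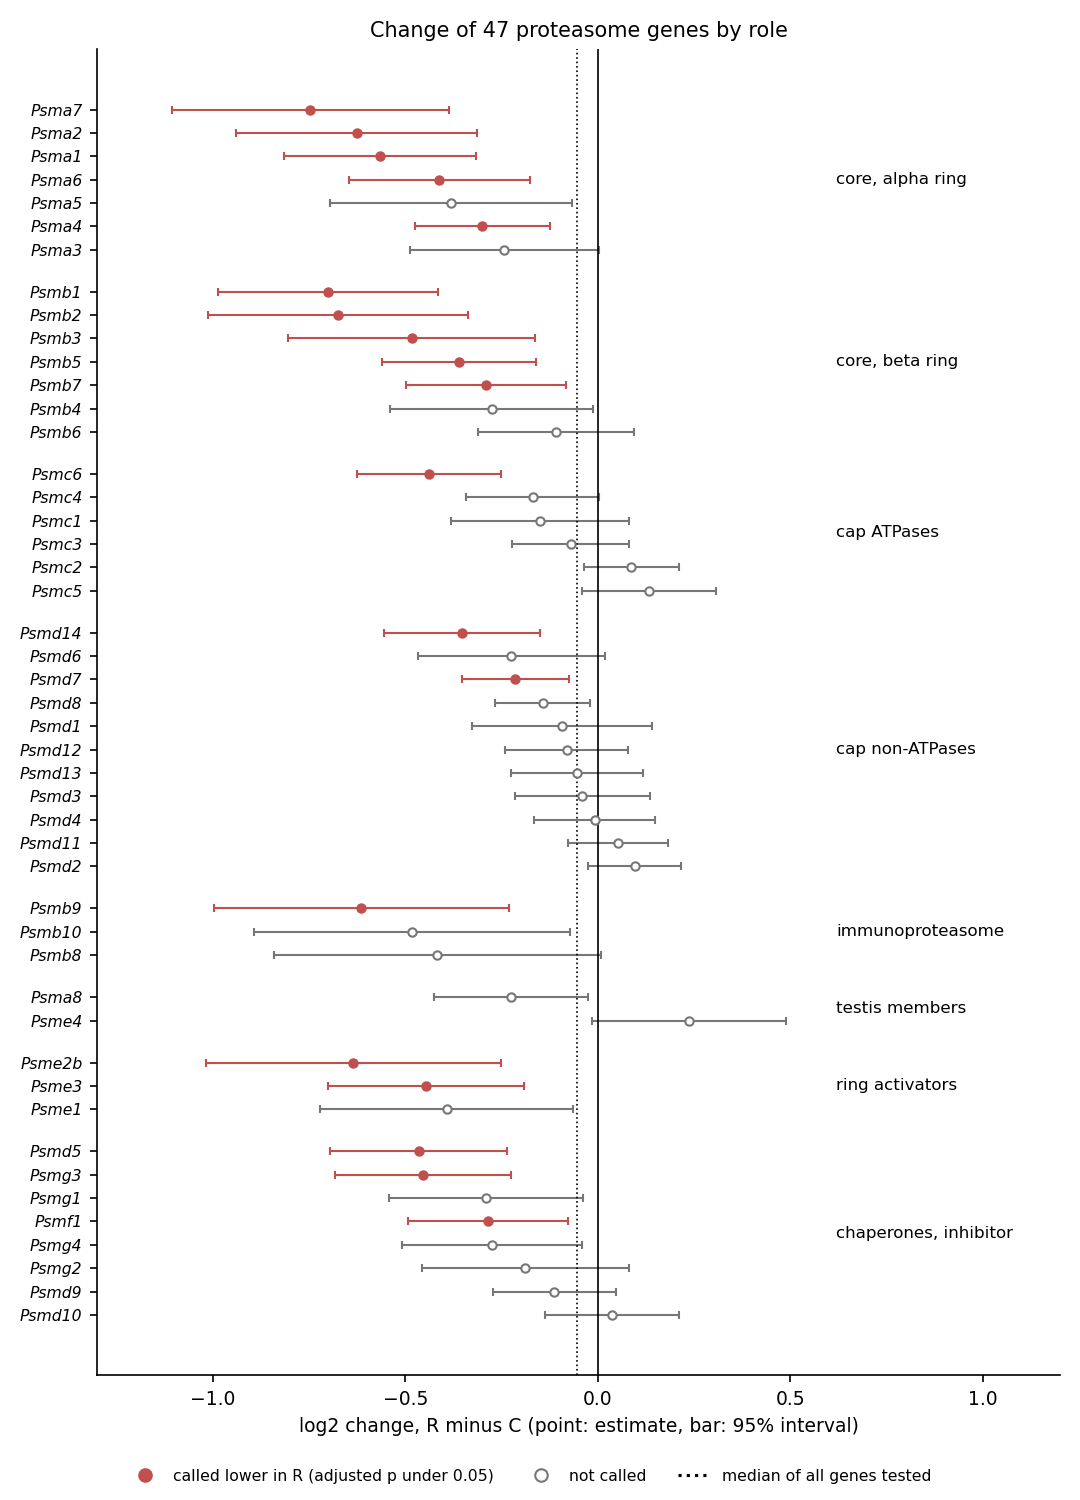
Log2 change, R minus C, of the 47 tested genes by role, with each point an estimate, each bar its 95% interval, filled points called genes and the dotted line the median of all genes tested (−0.05). The 14 core genes lie at or left of −0.11, while the 17 cap genes lie on both sides of 0.

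The counts and medians were also formed without the arrays that stand apart. Without R replicate 1 and C replicate 5, 9 of the 47 genes were called lower (Psma1, Psma2, Psma7, Psmb1, Psmb2, Psmc6, Psme3, Psmg3 and Psmd5), beside 11.1% of all genes, and the median stayed at −0.28. With the grouping of the authors' table, 0 genes were called by limma, 1 had an unadjusted p under 0.05, beside 7.52% of all genes, and the median was −0.18. Without C replicate 2, 21 genes were called lower and Psmc5 higher, beside 21.5% and 12.9% of all genes, and the median was −0.18, beside −0.04 over all genes. Within slide 1 the median was −0.41 with 22 genes called lower, beside 24.2% of all genes, and within slide 2 it was −0.25 with 0 called by limma and 11 at an unadjusted p under 0.05, beside 21.5% of all genes. With the slide as a block, 28 genes were called lower and 1 higher (Psme4), beside 30.9% and 20.3% of all genes. That fit called 13 of the 14 core genes lower at a median of −0.49, adding Psma3, Psma5 and Psmb4, and 4 of the 17 cap genes at −0.12. With the array median as the scale, 30 were called lower and 0 higher, beside 36.8% and 5.12% of all genes.

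The alpha ring opened the list. Psma7 encodes the alpha subunit that Psma8 replaces in germ cells. Where 5 values of a group are listed, they follow replicates 1 to 5, numbers given in accession order that only name an array. Psma7 had log2 signals of 2.62, 2.97, 2.50, 2.59 and 2.65 in R testes, against 3.38, 4.01, 3.15, 3.17 and 3.35 in C testes. All R values lay below all C values, and the highest of each group was replicate 2. Psma7 was 1.68-fold lower in R (95% interval 1.31 to 2.15; change −0.75 ± 0.16, SE; adjusted p = 0.00745). The change was −1.03 within slide 1, −0.57 within slide 2 and −0.60 without C replicate 2.

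Psma2 and Psma1 encode further alpha subunits of the ring that gates the core. Psma2 had log2 signals of 3.80, 3.96, 3.83, 3.83 and 3.80 in R testes, against 4.48, 5.02, 4.23, 4.21 and 4.42 in C testes. The R values spanned a narrow range below every C value, and the gene was 1.54-fold lower in R (change −0.63 ± 0.14, SE; adjusted p = 0.00864). Psma1 had 2.41, 2.50, 2.42, 2.40 and 2.45 in R testes, against 3.02, 3.41, 2.79, 2.78 and 2.99 in C testes. It was 1.48-fold lower in R without overlap (change −0.57 ± 0.11, SE; adjusted p = 0.00546).

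Psma6 and Psma4 were called lower too, at −0.41 and −0.30, with no overlap of the groups. The call of Psma4 was lost at its second-brightest probe, while its still dimmer probes were called lower. Psma5 and Psma3 were not called, at changes of −0.38 (adjusted p = 0.0548) and −0.24 (adjusted p = 0.101). Psma5 lay close to the threshold, and it was called on leaving out C replicate 2 (adjusted p = 0.0378), C replicate 3 (0.045) or C replicate 4 (0.0333). With the slide as a block both were called lower, Psma5 at −0.51 (adjusted p = 0.00984) and Psma3 at −0.36 (adjusted p = 0.0102).

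In the beta ring Psmb1 and Psmb2 had the largest changes. Both are beta subunits without an active site of their own. Psmb1 had log2 signals of 2.28, 2.47, 2.25, 2.10 and 2.35 in R testes, against 2.96, 3.42, 2.79, 2.74 and 3.03 in C testes. Its groups were apart, with 1.63-fold lower signal in R (95% interval 1.33 to 1.98; change −0.70 ± 0.13, SE) and an adjusted p of 0.00404, the smallest of the 47 genes. The change of Psmb1 was −0.92 within slide 1 and −0.51 within slide 2.

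Psmb2 had −1.05, −0.99, −1.13, −1.22 and −0.95 in R testes, against −0.29, 0.17, −0.63, −0.67 and −0.54 in C testes. The groups did not overlap, and C replicate 2 was again the highest array (change −0.67 ± 0.15, SE; 1.60-fold lower in R; adjusted p = 0.00854). Psmb3, another structural beta subunit, was called lower at −0.48 (adjusted p = 0.0258). That call was lost without R replicate 1 (adjusted p = 0.0582), R replicate 3 (0.0541) or R replicate 5 (0.0517). Psmb4, also structural, was not called at −0.28 (adjusted p = 0.0873), but was with the slide as a block, at −0.37 (adjusted p = 0.0233).

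The active sites of the standard core sit in Psmb5, which cuts after hydrophobic residues, Psmb7, which cuts after basic ones, and Psmb6, which cuts after acidic ones. Psmb5 had log2 signals of 3.17, 3.34, 3.19, 3.19 and 3.26 in R testes, against 3.46, 3.88, 3.49, 3.47 and 3.65 in C testes. All R values were lower, and the gene was called at 1.28-fold lower in R (change −0.36 ± 0.09, SE; adjusted p = 0.0129). Psmb7 was called lower at −0.29 (adjusted p = 0.0343), also without overlap. Its call was lost on leaving out any of 7 arrays (R replicates 1 to 5, C replicate 1 or C replicate 5), with an adjusted p up to 0.0769. Psmb6 was not called, at −0.11 with a 95% interval of −0.31 to 0.09 (adjusted p = 0.353). The difference in change between Psmb6 and the other catalytic subunits was not tested.

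Transcription of proteasome genes in mammals is raised by Nfe2l1, a factor that binds antioxidant response elements in their promoters, and by interferon signals at the inducible subunits. Promoter windows from RefSeq (GRCm38.p6, 250 bases before the start) were found for 41 of the 49 symbols. The antioxidant response element, searched as TGACNNNGC on both strands, was present in 5 of the 41 genes, or 12.2%, beside 11.5% of all 27025 genes with a window. The interferon-stimulated response element, searched as GAAA, any 2 bases and GAAA again on both strands, was present in 3 of the 41 (Psmb3, Psmd4 and Psmd9), or 7.32%, beside 3.46% of all genes. The windows of the inducible genes Psmb8, Psmb9 and Psmb10, and of Psme1 and Psme2, did not hold that element. The share for the first motif is near that of all genes, and neither share says whether a factor binds there.

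The 100 bases before the start are printed for the 3 genes whose antioxidant response element lies there, with the element in capitals, because they join a called subunit (Psmb5) and uncalled ones (Psmb6 and Psmd9). Psmb5 lies at chr14:54617996-54618095 on the minus strand, Psmb6 at chr11:70525257-70525356 on the plus strand and Psmd9, an assembly chaperone, at chr5:123228090-123228189 on the plus strand.
Psmb5: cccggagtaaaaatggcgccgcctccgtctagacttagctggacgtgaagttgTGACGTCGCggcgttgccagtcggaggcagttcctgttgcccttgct
Psmb6: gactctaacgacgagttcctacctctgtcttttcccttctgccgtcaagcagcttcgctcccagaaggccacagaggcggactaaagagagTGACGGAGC
Psmd9: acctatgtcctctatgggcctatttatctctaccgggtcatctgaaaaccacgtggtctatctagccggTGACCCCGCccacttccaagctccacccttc
The element starts 47 bases before the start of Psmb5, 9 before that of Psmb6 and 31 before that of Psmd9. Psmb5 was lower at −0.36, while Psmb6 and Psmd9 had uncalled changes of −0.11 and −0.11.

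**Figure D2:**
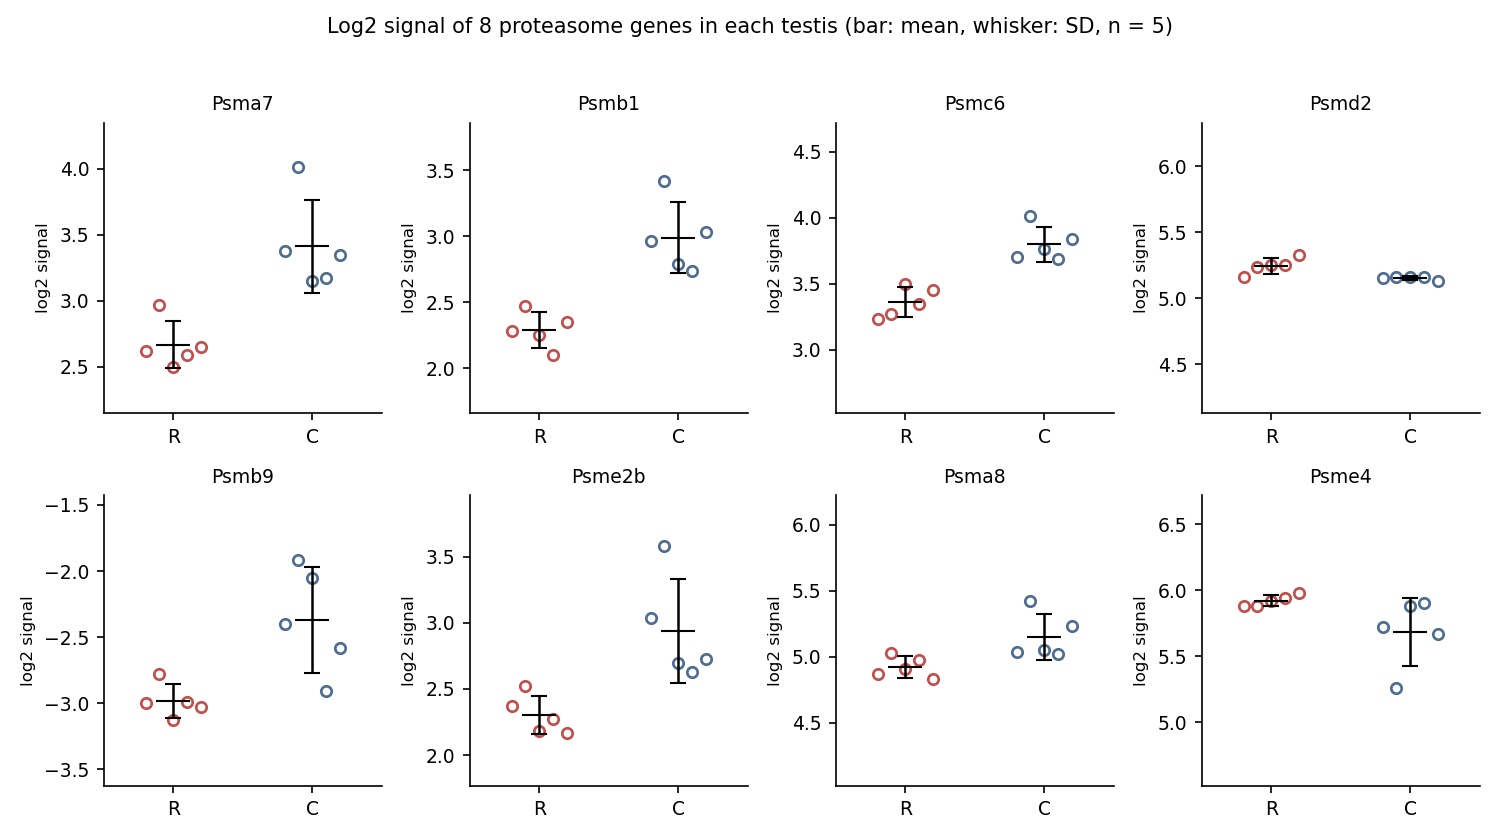
Log2 signal of 8 genes in each testis, R left and C right in every panel, with 1 circle per array, a bar at the mean and whiskers of 1 SD (n = 5 each); every panel spans the same height on the log2 scale. Psma7, Psmb1, Psmc6 and Psme2b have all R circles below all C circles, and Psme4 has its lowest circle, 5.26, at C replicate 2.

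Most cap genes were not called. The ATPase ring of the cap unfolds the substrate, and Psmc6 was its 1 called gene of 6. Psmc6 had log2 signals of 3.23, 3.27, 3.50, 3.35 and 3.45 in R testes, against 3.70, 4.01, 3.76, 3.69 and 3.84 in C testes. The groups did not overlap, and the gene was 1.36-fold lower in R (95% interval 1.19 to 1.54; change −0.44 ± 0.08, SE; adjusted p = 0.0047). Its change was −0.52 within slide 1 and −0.31 within slide 2.

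Psmc4, another ATPase, had 2.37, 2.52, 2.48, 2.48 and 2.51 in R testes, against 2.63, 2.87, 2.61, 2.61 and 2.49 in C testes. C replicate 5 overlapped the R values, and the change of −0.17 was not called (adjusted p = 0.105). For Psmc5 the signals were 3.78, 3.88, 3.78, 3.83 and 3.70 in R testes, against 3.71, 3.88, 3.59, 3.56 and 3.56 in C testes. The groups overlapped, the change of 0.13 was not called (adjusted p = 0.195), and it turned to −0.06 with the array median as the scale. Without C replicate 2, Psmc5 was called higher by 0.19 (adjusted p = 0.0349). Psmc1, Psmc2 and Psmc3 had changes of −0.15, 0.09 and −0.07 and were not called. The sign of Psmc2 turned to −0.10 with the array median as the scale.

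Among the 11 cap subunits without ATPase activity, Psmd14 and Psmd7 were called lower. Psmd14 is the deubiquitinase that removes the ubiquitin chain as the substrate enters, and Psmd7 is its partner in the lid. Psmd14 had log2 signals of 2.47, 2.48, 2.44, 2.43 and 2.40 in R testes, against 2.79, 3.11, 2.70, 2.60 and 2.78 in C testes. It was 1.28-fold lower in R with no overlap (change −0.35 ± 0.09, SE; adjusted p = 0.0146), and its other probe was called lower at −0.43.

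Psmd7 had 2.59, 2.64, 2.55, 2.54 and 2.57 in R testes, against 2.71, 2.92, 2.78, 2.70 and 2.85 in C testes. The groups were apart by little, at a change of −0.21 ± 0.06 (SE; adjusted p = 0.0239). The call was lost without R replicate 1, 3 or 4 or C replicate 5, with an adjusted p between 0.051 and 0.0578. Psmd8, a lid subunit, had 4.59, 4.53, 4.69, 4.57 and 4.62 in R testes, against 4.75, 4.76, 4.72, 4.71 and 4.78 in C testes. Its groups did not overlap either, but the change of −0.14 was not called (adjusted p = 0.0635).

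The remaining 8 lid and base genes were not called, with changes between −0.22 for Psmd6 and 0.10 for Psmd2. Psmd4, a receptor that binds ubiquitin chains, had a change of −0.01 with a 95% interval of −0.17 to 0.15. Psmd2, a scaffold of the base, had R values of 5.16 to 5.33 and C values of 5.13 to 5.16. Its change of 0.10 was not called (adjusted p = 0.179) and turned to −0.09 with the array median as the scale. The dimmer probe of Psmd2 was called higher by 0.32 (adjusted p = 0.00705). Psmd2, Psmc2 and Psmc5 were called higher with the authors' scaling factors, where 17 of the 47 genes were called lower and 3 higher, beside 17.5% and 17.4% of all genes.

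The core and the cap were set side by side within each array. The mean log2 signal of the 14 core genes minus that of the 17 cap genes was −0.66, −0.58, −0.69, −0.68 and −0.65 in R testes, against −0.34, −0.07, −0.44, −0.41 and −0.28 in C testes. All R arrays lay below all C arrays, R replicate 1 and C replicate 5 included, and C replicate 2 was farthest up. The array's scaling cancels in this difference, and it is given as a description with no p, since the genes were grouped with results of these data known. The level of the difference itself carries no meaning, because probes are not comparable with each other.

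**Figure D3:**
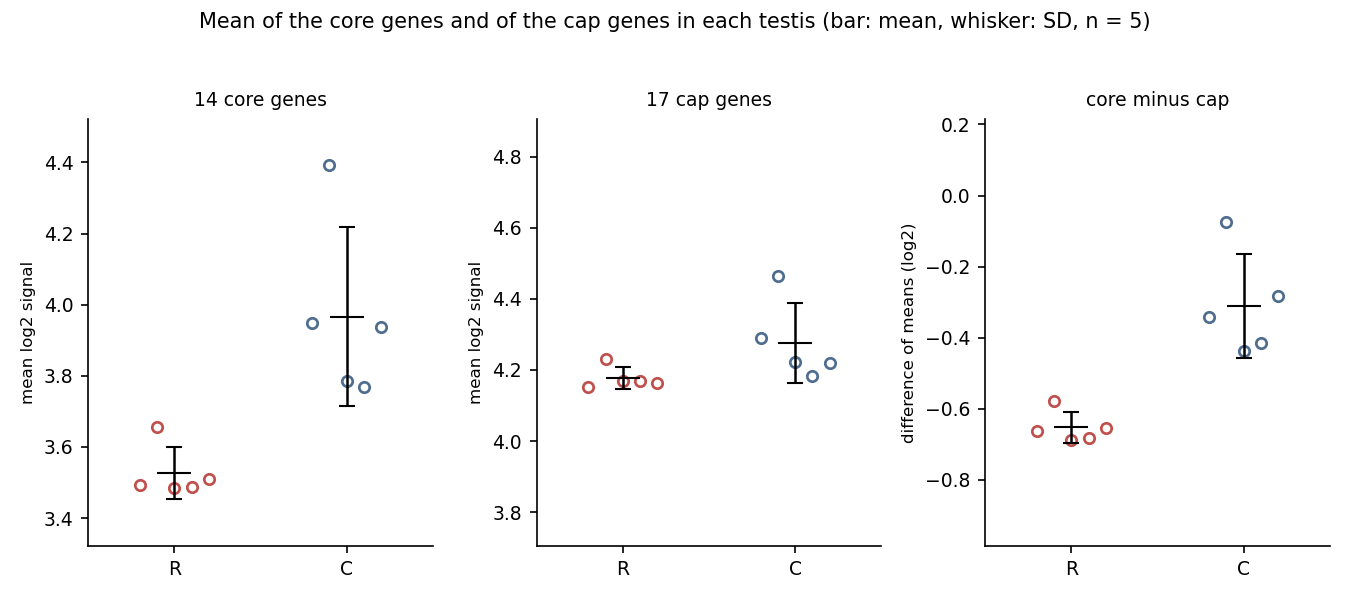
Mean log2 signal of the 14 core genes, of the 17 cap genes, and their difference in each testis, R left and C right, with 1 circle per array, a bar at the mean and whiskers of 1 SD (n = 5 each). The core means lie between 3.48 and 3.66 in R and between 3.77 and 4.39 in C, whereas the cap means of the groups overlap.

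How far the cap stood from the core depended on the probe. With the mean of all tested probes of a gene, 11 of 14 core genes and 8 of 17 cap genes were called lower, and Psmd2 higher, beside 23.1% lower and 14.4% higher of all genes. For the genes with more than 1 tested probe, the second-brightest probe was called lower in 3 of 6 core genes and 5 of 9 cap genes, beside 23.4% of all genes with such a probe. At Psmd3, a lid subunit, the brightest probe had a change of −0.04, while a dimmer probe had −0.60 (adjusted p = 0.00139). At Psmb4 the brightest probe had −0.28 and the dimmer one −0.70 (adjusted p = 0.00278). At Psma4 the order was the other way, with −0.30 at the brightest probe and −0.03 at the next (adjusted p = 0.719). The remaining probes of Psma4, dimmer still, were called lower at −0.19 (adjusted p = 0.037) and −0.23 (adjusted p = 0.0295).

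Over the 20 genes with several tested probes, all probes had the same sign in 19, and Psmf1 was the exception. In 10 of the 20 the brightest probe was not called but at least 1 dimmer probe was (Psmb4, Psmc3, Psmc4, Psmd2, Psmd3, Psmd6, Psmd13, Psme4, Psma8 and Psmg1). In 0 genes did called probes oppose each other. Over all genes with a second-brightest tested probe, that probe was called lower in 23.4% and higher in 18.7%. The shares of all genes for the counts in this paragraph were not formed.

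**Figure D4:**
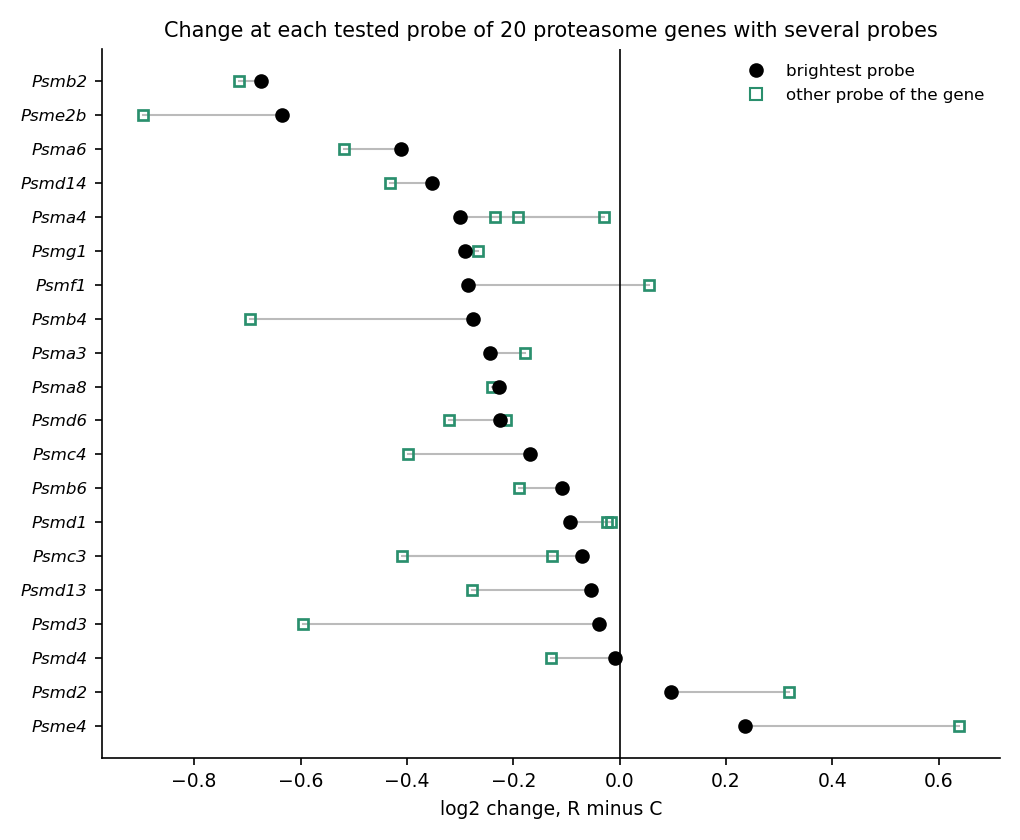
Log2 change, R minus C, at each tested probe of the 20 genes with several, with filled circles for the brightest probe and open squares for the others. Squares share the side of their circle in 19 genes, and the widest gap below 0 is at Psmd3 (−0.04 and −0.60).

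The testis genes were Psma8 and Psme4, and at their brightest probes neither was called. Psma8 had log2 signals of 4.87, 5.03, 4.91, 4.98 and 4.83 in R testes, against 5.04, 5.42, 5.05, 5.02 and 5.23 in C testes. R replicate 2 reached into the C range, and the change was −0.23 ± 0.09 (SE; adjusted p = 0.0689). The dimmer probe of Psma8 was called lower at −0.24 (adjusted p = 0.0244). A slide term brought the brightest probe past the threshold too, at −0.28 (adjusted p = 0.0316), as did 4 other choices of scaling, background or variance, with adjusted p values from 0.0323 to 0.0461.

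Psme4 had 5.88, 5.88, 5.92, 5.94 and 5.98 in R testes, against 5.72, 5.26, 5.88, 5.90 and 5.67 in C testes. C replicates 3 and 4 reached the R range and C replicate 2 was the lowest, with a change of 0.24 ± 0.11 (SE; adjusted p = 0.118). Without C replicate 2 the change was 0.13, and with the array median as the scale 0.05. The dimmer probe of Psme4 was called higher, at 3.03 ± 0.10 in R and 2.39 ± 0.38 in C (SD, n = 5 each; change 0.64 ± 0.16, SE; adjusted p = 0.0144). Psme4 was also called higher in the fit with a slide term, at 0.33 with an adjusted p of 0.0301, with uncalled values of 0.42 within slide 1 and 0.16 within slide 2. The changes of Psma8 and Psme4 had opposite signs, and the fit with a slide term called both.

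Ratios of an alternative subunit to the one it replaces were formed within each array, which removes the array's scaling. The log2 ratio of Psma8 to Psma7 was 2.25, 2.06, 2.41, 2.40 and 2.18 in R testes, against 1.66, 1.42, 1.91, 1.84 and 1.87 in C testes. Every R ratio was above every C ratio. The difference of 0.52, a 1.43-fold higher ratio in R, had an exact 2-sided permutation p of 0.00794, the smallest that 252 arrangements of 5 and 5 arrays allow, and 0.0317 after adjustment over the 4 ratios formed. The difference was 0.74 within slide 1 and 0.30 within slide 2, where the exact p values of 0.0667 and 0.25 were the smallest possible. A higher ratio shows unequal change of these probes, with Psma7 the gene of larger change.

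Immunoproteasome subunits were dim or mid-range on these arrays. Psmb9 replaces Psmb6 in immune cells and after interferon. It had log2 signals of −3.00, −2.78, −3.13, −2.99 and −3.03 in R testes, against −2.40, −1.92, −2.05, −2.91 and −2.58 in C testes. C replicate 4 lay within the R range, and the gene was called 1.53-fold lower in R (95% interval 1.17 to 2.0; change −0.61 ± 0.17, SE; adjusted p = 0.0204). The change was −0.81 within slide 1 and −0.52 within slide 2.

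Psmb10, the inducible counterpart of Psmb7, had 1.13, 1.34, 0.87, 0.98 and 0.85 in R testes, against 1.50, 2.20, 1.29, 1.15 and 1.44 in C testes. The groups overlapped, and the change of −0.48 was not called (adjusted p = 0.0613), but it was without C replicate 4 (adjusted p = 0.0364). Psmb8, the counterpart of Psmb5, had −3.39, −3.27, −3.58, −3.63 and −3.43 in R testes, against −3.37, −2.51, −2.67, −3.55 and −3.12 in C testes. C replicates 1 and 4 lay among the R values, and the change of −0.42 was not called (adjusted p = 0.104; 0.0347 without C replicate 4).

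The log2 ratio of Psmb9 to Psmb6 was −9.06, −9.0, −9.23, −9.15 and −9.06 in R testes, against −8.60, −8.45, −8.14, −9.01 and −8.77 in C testes. C replicate 4 alone reached the R range, and the difference of −0.50 had an exact permutation p of 0.0159 (adjusted over the 4 ratios, 0.0317). It was −0.58 within slide 1 and −0.42 within slide 2, at exact p values of 0.0667 and 0.5. Psmb8 over Psmb5 differed by −0.06 (exact permutation p = 0.762) and Psmb10 over Psmb7 by −0.19 (exact permutation p = 0.206), both with overlapping groups.

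**Figure D5:**
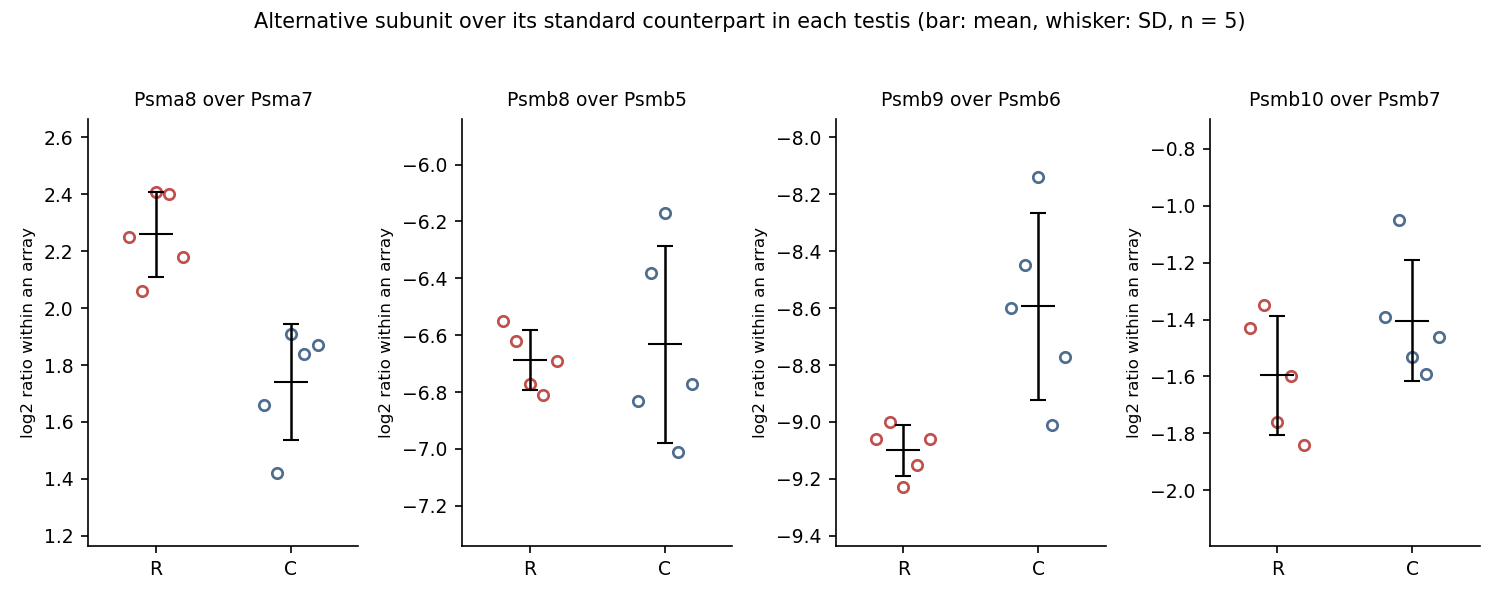
Log2 ratio, within each array, of Psma8, Psmb8, Psmb9 and Psmb10 to the standard subunit each replaces, R left and C right, with 1 circle per array, a bar at the mean and whiskers of 1 SD (n = 5 each). The R circles lie above all C circles for Psma8 over Psma7, and below all C circles but replicate 4 for Psmb9 over Psmb6.

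Psme1, Psme2 and Psme3 encode the ring-shaped activators that open the core without ATP. The first pair forms the interferon-induced ring, and Psme3 forms a nuclear one. Psme1 had log2 signals of 1.47, 1.81, 1.34, 1.47 and 1.42 in R testes, against 1.94, 2.37, 1.67, 1.58 and 1.91 in C testes. R replicate 2 overlapped the C range, and the change of −0.39 was not called (adjusted p = 0.058). It was called on leaving out R replicate 2 (adjusted p = 0.0385), C replicate 3 (0.0478) or C replicate 4 (0.032).

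The Psme2b probe, which may read Psme2 RNA, had 2.37, 2.52, 2.18, 2.27 and 2.17 in R testes, against 3.04, 3.58, 2.70, 2.63 and 2.73 in C testes. It was 1.55-fold lower in R without overlap (change −0.63 ± 0.17, SE; adjusted p = 0.0181), and its dimmer probe was lower at −0.90 (adjusted p = 0.00345). That dimmer probe was the 1 proteasome probe in the authors' deposited table, with a log2 ratio of −0.649 in that table's grouping, a p of 0.0281 and a q of 0.515.

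Psme3 had −0.15, −0.21, −0.06, −0.14 and 0.08 in R testes, against 0.40, 0.75, 0.23, 0.21 and 0.17 in C testes. All R values were lower, though R replicate 5 and C replicate 5 came close, and the change was −0.45 ± 0.12 (SE; 1.36-fold lower in R; adjusted p = 0.0146). The change was −0.71 within slide 1 and −0.12 within slide 2.

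Assembly chaperones build the core and the cap and then leave them. Psmd5, a chaperone of the ATPase ring, had log2 signals of 0.04, 0.08, 0.15, 0.02 and 0.01 in R testes, against 0.48, 0.88, 0.43, 0.28 and 0.57 in C testes. The groups did not overlap (change −0.47 ± 0.10, SE; 1.38-fold lower in R; adjusted p = 0.0081). Psmg3, a chaperone of the alpha ring, had 0.14, 0.23, 0.13, 0.16 and 0.22 in R testes, against 0.54, 1.03, 0.48, 0.53 and 0.57 in C testes. It was lower in all R testes (change −0.45 ± 0.10, SE; 1.37-fold lower in R; adjusted p = 0.0088).

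Psmf1 encodes an inhibitor of the core. Its signals were 3.61, 3.34, 3.70, 3.42 and 3.64 in R testes, against 3.83, 3.60, 3.89, 3.94 and 3.87 in C testes. C replicate 2, the highest array for most other genes, was the lowest C array here. The change of −0.28 ± 0.09 (SE; adjusted p = 0.0365) was not seen at the second probe, which had 0.06. The call was lost on leaving out any of 7 arrays (R replicate 1, 2 or 4, or C replicate 1, 3, 4 or 5), with an adjusted p up to 0.085. Psmg1, Psmg2, Psmg4, Psmd9 and Psmd10, the remaining chaperones, were not called, at changes between −0.29 for Psmg1 and 0.04 for Psmd10. Psmg1 was called without C replicate 2 (adjusted p = 0.0404) and Psmg4 without C replicate 3 (adjusted p = 0.0428).

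Genes that control proteasome transcription were described as a list of 13, of which 2 were called lower and 1 higher, with a median change of −0.04. The shares are 15.4% and 7.69%, beside 22.9% lower and 13.1% higher over all genes. Nfe2l2, the stress-induced relative of Nfe2l1, had log2 signals of −0.22, −0.14, −0.02, −0.08 and −0.15 in R testes, against 0.58, 1.02, 0.59, 0.52 and 0.79 in C testes. All R values lay below 0 and all C values above it, a 1.76-fold lower signal in R (change −0.82 ± 0.10, SE; adjusted p = 0.00128). Nfe2l3, a further relative, was called lower at −1.0 (adjusted p = 0.00386), but not with the mean of its probes, at −0.59 (adjusted p = 0.0716), or at its second-brightest probe, at −0.18 (adjusted p = 0.767). Nfe2l1 itself, named here for its role after its values were seen, was not called at −0.17 (adjusted p = 0.201). The other tested probe of Nfe2l1 had a change of the opposite sign. Mafk, a small partner of these factors, was called higher by 0.25 (adjusted p = 0.0498), a call lost on leaving out any of 8 arrays (R replicate 1, 3, 4 or 5, or C replicate 1, 2, 4 or 5; adjusted p up to 0.107).

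Partners that carry no Psm name gave 2 genes lower and 2 higher of 11, with a median of −0.07. These are shares of 18.2% each, beside 22.9% lower and 13.1% higher over all genes. Ube3c, a ubiquitin ligase that works at the proteasome, was called lower at −0.45 (adjusted p = 0.00489), and Txnl1, a thioredoxin bound to the cap, at −0.43 (adjusted p = 0.0133). Ecpas, an adaptor of the assembled proteasome, was called higher by 0.34 (adjusted p = 0.00802), and Ube3a, another ubiquitin ligase, by 0.29 (adjusted p = 0.0129). Groups did not overlap in any of the 4, beside 29.3% of all genes, but these 4 were picked as the genes of smallest p in their list. Both calls of higher signal were lost with the array median as the scale, at 0.15 for Ecpas (adjusted p = 0.251) and 0.10 for Ube3a (adjusted p = 0.463), and within slide 1.

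Of 12 genes for ubiquitin shuttles and the unfoldase that feeds the proteasome, 2 were called lower and 2 higher, with a median of 0.07. These are shares of 16.7% each, beside 22.9% lower and 13.1% higher over all genes. The shuttle Ubqln2 was lower at −0.59 (adjusted p = 0.0115). The unfoldase cofactor Nsfl1c was lower at −0.53 (adjusted p = 0.0121) and the cofactor Nploc4 higher by 0.33 (adjusted p = 0.0127). The call of Nploc4 was lost with the array median as the scale, at 0.14 (adjusted p = 0.17), and within slide 1. Ubiquitin genes and their activating enzymes gave 0 calls of 6 by limma, beside 36.0% of all genes. In that list 1 gene had an unadjusted p under 0.05, beside 48.2% of all genes. The smallest p of that list was that of Uba6, an activating enzyme, at −0.38 (adjusted p = 0.0629, and 0.0306 without C replicate 4). Rps27a, which encodes ubiquitin fused to a ribosomal protein, had an uncalled change of −0.24.

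Antigen presentation partners gave 2 called lower of 7 tested, or 28.6%, beside 22.9% of all genes, with a median of −0.21. B2m, the light chain of class I molecules, had 1.17, 1.44, 1.03, 1.0 and 1.13 in R testes, against 2.07, 2.42, 2.19, 1.72 and 1.69 in C testes. It was 1.82-fold lower in R without overlap (change −0.86 ± 0.15, SE; adjusted p = 0.00332). Calr, a chaperone of class I loading, was lower at −0.21 (adjusted p = 0.0305), a call lost without R replicate 1, 3, 4 or 5 (adjusted p between 0.052 and 0.074). Tapbp and Tap2, which load peptides, were not called at −0.15 and −0.24.

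Cell type markers were set beside these groups, with counts to be read against all genes tested. Of those, 22.9% were called lower and 13.1% higher, and 48.2% had an unadjusted p under 0.05. Of 15 Sertoli markers, 13 were called lower and 1 higher, and their summed linear level relative to the array's scale ran from 342 to 418 in R and from 419 to 629 in C. Clu and Rhox8 made up 46.4% to 65.6% of the Sertoli sum, and Rhox8 was the 1 called higher, by 0.89. Of 8 Leydig markers, 3 were called lower, or 37.5%, at summed levels of 28.2 to 37.0 in R and 35.1 to 65.5 in C. Macrophage and leukocyte markers had 6 of 12 called lower and 1 higher, with a median change of −0.58. Their sums pointed the other way, at 130 to 153 in R and 108 to 130 in C, and the brightest pair, Aif1 and Itgam, made up 91.6% to 97.4% of the sum. Itgam was the 1 called higher, by 1.03. Leukocytes are known to express the immunoproteasome genes and B2m.

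Spermatogonial markers had 6 of 12 called lower and 2 higher, with sums of 44.7 to 46.7 in R and 51.0 to 76.2 in C, and spermatocyte markers 7 of 14 lower and 1 higher, with sums of 448 to 476 in R and 464 to 538 in C. Ldhc and Hspa2, at uncalled changes of 0.02 and −0.01, made up 61.38% to 68.85% of the spermatocyte sum. In every marker list the brightest pair made up at least 43.7% of the sum on each array, so the sums largely follow 2 genes. Round spermatid markers had 0 of 10 called by limma, with 1 at an unadjusted p under 0.05, beside 48.2% of all genes. The sums of that list were 214 to 242 in R and 206 to 246 in C. Elongating spermatid markers had 2 of 10 called lower, or 20%, beside 22.9% of all genes, at sums of 1924 to 2174 in R and 1890 to 2271 in C. Of 5 blood markers 4 were called lower, beside 22.9% of all genes. Of 7 endothelial markers 4 were called higher, and of 6 peritubular myoid markers 1, beside 13.1% of all genes. Of 5 epididymal and fat markers tested, 0 were called by limma and 1 had an unadjusted p under 0.05, beside 48.2% of all genes. Their median change was 2.08, from −0.28 for Adipoq, the only one below 0, to 3.01 for Cfd. The sums of that list were 3.92 to 17.1 in R and 2.46 to 11.5 in C. C replicate 2, the array with the highest proteasome signals, had the highest sum of the 10 arrays for 7 of the 11 marker lists (Sertoli, Leydig, myoid, blood, spermatogonial, spermatocyte and elongating spermatid) and the lowest for leukocyte and endothelial markers. The fat gene Cfd had log2 signals of 3.32 on R replicate 2 and 2.42 on C replicate 2, above the −6.29 to 0.50 of the other arrays. The part of cell makeup in the proteasome changes was not tested.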

How the data were processed

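Testis RNA of 5 R and 5 C mice was measured on 1 array each. The deposited intensity values are those of each scanned spot, made with Agilent Feature Extraction 12.0.3.1 as named in the submitters' processing notes. The background was subtracted from the processed intensity within the array, and mm9 is the build of the probe annotation, per the file headers. A table deposited by the authors holds 2266 probes with log2 ratios, p-values, q-values and scaled intensities; its 10 further columns of per-sample values were not used here, and how its q-values were made is not given in the sources used here.

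Control and outlier spots were left out and spots of a probe averaged. Each log2 processed intensity, less the 75th percentile of its array over 56605 probes, was the unit of all tests, which used lmFit and eBayes of limma 3.58.1 (R 4.3.3, 2-sided), with Benjamini-Hochberg adjustment over 33851 probes, those marked well above background on 5 or more of the 10 arrays. A GRCm38.p6 gene table gave names to 33767 probes by accession. Exact permutation tests served the 4 ratios. Alternatives covered scaling, background correction (normexp, offset 50, on spot medians, since spot means were not in the files), filter, probe choice, test, slide, grouping and left-out arrays; the spot-level percentile and the spot-median version were chosen after seeing the data.

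On simulated data of 33851 probes with 200 changed, the R against C procedure called 79% of the 2-fold changes, 92% of the 4-fold changes and 13 unchanged probes. The simulation drew each probe independently, whereas 13134 probes were called in the data. No proteasome gene changed 2-fold, the largest change at a brightest probe being 1.68-fold (Psma7). The simulated shares therefore do not give the sensitivity or error rate for the changes reported here. Precision is limited by the number of arrays. The proteasome genes, the gene lists and the tests were chosen with earlier results of these data known. Values for every array are given for the testis, immunoproteasome and interferon-induced activator genes whatever their values, and for up to 3 genes of smallest p in each other role. Up to 4 genes of smallest p are named from each pathway list, of which some are not reported here.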

Additional observations from a re-analysis of the deposited data

Results flagged for a closer look

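In each group of 5 arrays, an array was singled out where its gap to the nearest other value exceeded 0.71 of the group's range. Chance alone does so in about 1 in 20 groups, and it held for 19 of the 144 groups examined, 11 of them for a high value on C replicate 2. No explanation was tested.

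On C replicate 2, Psma4 had 4.83 beside 4.49 to 4.53 on the other C arrays, Psma7 4.01 beside 3.15 to 3.38 and Psmb3 4.88 beside 4.08 to 4.27. Psmb4 had 5.78 beside 5.14 to 5.32, Psmb6 6.53 beside 6.09 to 6.20 and Psmc3 7.81 beside 7.55 to 7.60. The chaperones Psmg1, Psmg3 and Psmd10 had 4.29, 1.03 and 2.01 there. The ligase Ube3c had −0.60 beside −1.01 to −0.93 on the other C arrays, and Calr had 4.43 beside 4.19 to 4.26.

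R replicate 2 stood high within R for several genes. Psma2 had 3.96 beside 3.80 to 3.83, Psma6 6.33 beside 6.12 to 6.15 and Psmc3 7.64 beside 7.52 to 7.55. Psmd13 had 4.61 beside 4.45 to 4.47 and Psme1 1.81 beside 1.34 to 1.47. The adaptor Ecpas had −0.23 beside −0.51 to −0.44. R replicate 1 was low for Psmc4, at 2.37 beside 2.48 to 2.52.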

How the results depend on the processing

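The count of 19 called proteasome genes became 30 with the array median as the scale, 29 with the slide as a block, 9 without the 2 arrays grouped otherwise, 0 within slide 2 and 0 with the authors' grouping; the causes were not tested. It lay between 15 and 22 on leaving out each array, with 8 to 11 core and 2 to 3 cap genes lower, and between 13 and 28 under the other settings. The array median as the scale moved the median of all genes to −0.24 and that of the proteasome genes to −0.47, an offset of −0.22 under both scales. The split of all called genes was 3837 lower and 2194 higher, against 6158 and 856 with the array median and 2935 and 2918 with the authors' factors. The median of the proteasome genes stayed below 0 under all 27 alternatives, from −0.47 to −0.18, and from −0.32 to −0.18 on leaving out each array. Of the 19 calls, 15 held on leaving out each array in turn.

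The ratio of Psma8 to Psma7 differed by 0.74 within slide 1, 0.30 within slide 2 and 0.37 with the authors' grouping (exact permutation p = 0.0667, 0.25 and 0.0714), and by 0.44 to 0.57 on leaving out each array. For Psmb9 over Psmb6 these were −0.58, −0.42 and −0.39, with −0.56 without the 2 arrays grouped otherwise (exact permutation p = 0.0667, 0.5, 0.0794 and 0.0571), and −0.61 to −0.39 on leaving out each array. Psmb10 over Psmb7 was −0.32 with the slide as a block (exact permutation p within slides 0.0333) and −0.25 to −0.10 on leaving out each array. Psmb8 over Psmb5 turned to 0.09 with normexp and lay between −0.15 and 0.06 on leaving out each array, above 0 without C replicate 2 (0.01) or C replicate 3 (0.06).

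Signs turned for genes near 0. With the array median they were −0.10 for Psmc2, −0.06 for Psmc5, −0.09 for Psmd2, −0.14 for Psmd11 and −0.15 for Psmd10, which had −0.02 within slide 1. With the authors' factors and with their linear comparison they were 0.02 for Psmc3, 0.05 for Psmd3, 0.08 for Psmd4, 0.01 for Psmd12 and 0.03 for Psmd13. Array weights gave 0.00 for Psmd1, 0.02 for Psmd3, 0.04 for Psmd4 and 0.01 for Psmd13. Within slide 2 they were 0.01 for Psmd3, 0.06 for Psmd4, 0.02 for Psmd9 and 0.01 for Psmd13. Psmd4 had 0.03 with quantile normalisation, 0.02 with the spot-level percentile, and −0.04 to 0.04 on leaving out each array. Without C replicate 2, Psmd3 had 0.01 (−0.08 to 0.01 on leaving out each array) and Psmd13 0.00. The second probe gave 0.06 for Psmf1.

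No paired analysis was possible because the labels give no litters or pairs, and the replicate numbers used here were given in accession order and only name an array. Dim probes limit Psmb8 and Psmb9, which lay below the array's scale on all 10 arrays.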
